A study of Mus musculus with 19 samples.

Results

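The INO80 chromatin remodelling complex was followed through 10 genes that code for its subunits and not for those of other chromatin remodellers, *Ino80*, *Ino80b*, *Ino80c*, *Ino80d*, *Ino80e*, *Actr5*, *Actr8*, *Nfrkb*, *Tfpt* and *Uchl5*. They were found by symbol among 51912 gene rows, and all 10 passed the filter on low counts in each comparison. Neocortical tissue of mouse embryos at E13.5, on a mixed C57BL/6 and 129 background in every group, was sequenced as 1 library per embryo. The 7 ctrl embryos are labelled as controls, with no alleles named. The 5 cKO-E embryos are conditional *Ino80* mutants, and the 7 dKO-E embryos are conditional mutants of *Ino80* and *Trp53*, the gene for p53, both made with Cre expressed from *Emx1*. Cre from this locus acts in the progenitors of excitatory neurons and in their descendants, so interneurons, microglia and vessel cells of the dissected tissue keep intact alleles. By sex, the embryos were 4 females and 3 males in ctrl, 4 and 1 in cKO-E, and 2 and 5 in dKO-E. The comparisons ask whether the other subunits change at the RNA level when the motor subunit is deleted, and whether codeletion of *Trp53* alters this.

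INO80 slides and spaces nucleosomes with energy from ATP, and acts at promoters, stalled replication forks and DNA breaks. It is built on the INO80 protein, a large ATPase along which the other subunits are strung in modules. The ATPase domain carries RUVBL1 and RUVBL2, ACTR5, INO80B and INO80C. A middle segment carries ACTR8 with actin and ACTL6A, and the amino-terminal segment carries NFRKB, UCHL5, TFPT, INO80D, INO80E and MCRS1.

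Libraries held between 820915 and 8095810 counts on genes (median 2952788). Reads outside genes made up 6.00% to 15.1%, and were above 10% in ctrl H and I and in cKO-E A and E. Each count stands for 1 deduplicated cDNA molecule. Levels are counts per 1000000 (CPM) after TMM normalization. Of 14 dorsal cortex markers, *Sox2* and *Tubb3* were listed at 0 in every library. The others summed to 2285 to 3048 CPM in ctrl, 2293 to 2738 CPM in cKO-E and 1889 to 2583 CPM in dKO-E. Of the 12 tested against ctrl, 10 had a log2 fold change below 0 in cKO-E and 11 in dKO-E. Among all genes tested, 53.4% and 51.4% had a value above 0. The 10 microglia markers summed to 25.6 to 34.6 CPM in cKO-E, 4.39 to 15.5 CPM in ctrl and 5.02 to 8.67 CPM in dKO-E. The 9 ganglionic eminence markers summed to 64.8 to 119 CPM in cKO-E, 9.60 to 83.9 CPM in ctrl and 29.0 to 69.7 CPM in dKO-E, with *Nkx2-1* and *Gsx2* at 0 in cKO-E and *Gsx2* at 0 in ctrl. The part of these cells in the results was not tested. Blood, endothelium and meninges markers overlapped between the groups, and 3 choroid plexus markers stayed at or under 0.564 CPM in sum. In bulk tissue, fewer cells of a type and less RNA per cell cannot be told apart.

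*Ino80* (ENSMUSG00000034154.15) lies on the minus strand of chromosome 2, from 119373042 to 119477687 of GRCm38. In the conditional allele, loxP sites flank exons 2 to 4 of the 36 exons of its longest annotated transcript. These exons hold the start codon, and their coding bases are printed here because they are the sequence that Cre removes. Letters are from the GENCODE transcript and read 5′ to 3′ along the mRNA, with the start codon in capitals.
*Ino80* exon 2, coding bases, 119458081 to 119458223: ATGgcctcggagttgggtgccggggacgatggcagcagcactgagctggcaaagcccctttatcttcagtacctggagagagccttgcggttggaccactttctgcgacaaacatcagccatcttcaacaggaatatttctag
*Ino80* exon 3, 119456572 to 119456741: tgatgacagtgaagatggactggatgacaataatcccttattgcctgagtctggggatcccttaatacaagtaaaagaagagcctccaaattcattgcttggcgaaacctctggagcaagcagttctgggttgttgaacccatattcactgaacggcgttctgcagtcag
*Ino80* exon 4, 119456385 to 119456452: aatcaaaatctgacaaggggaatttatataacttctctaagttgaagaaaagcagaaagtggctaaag
Exons 2 to 4 are 424 bases long, 6.23% of the exon bases of the gene, and hold 381 coding bases, which is 127 whole codons. The segment from exon 2 to exon 4 spans 1882 bases, 1.80% of the gene. The deposited counts are sums over the whole gene, so a count of *Ino80* is taken almost entirely from bases that the deletion leaves in place and does not check the deletion.

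*Ino80* RNA was higher in both mutants. In ctrl its level was 121 ± 8.62 CPM (SD, n = 7), with a lowest value of 110 CPM in embryo A, a median of 118 CPM and a highest value of 133 CPM in embryo I. The cKO-E embryos A to E had 157, 173, 175, 146 and 181 CPM. The dKO-E embryos ranged from 160 CPM in embryo E through a median of 189 CPM to 199.8 CPM in embryo A. Every embryo of either mutant lay above every ctrl embryo, while the mutants overlapped each other.

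Against ctrl, the log2 fold change of *Ino80* was 0.48 (SE 0.065, 95% interval 0.34 to 0.62, quasi-likelihood edgeR adjusted p = 7.92e-05) in cKO-E. In dKO-E it was 0.62 (SE 0.059, interval 0.50 to 0.74, adjusted p = 8.84e-07 from the same test). These are increases of 39.6% and 53.8%. *Ino80* was the sole subunit called at the study's false discovery rate of 0.001 in either comparison, 1 of 10 where 1.06% of all genes tested were called higher in cKO-E and 0.246% in dKO-E. The libraries held 118 to 1501 counts of *Ino80*. The call in cKO-E was lost when the 4 libraries with over 10% of reads outside genes were left out (log2 fold change 0.49, edgeR adjusted p = 0.00116) or only females were used (0.51, adjusted p = 0.00200), and in batch 2 alone (adjusted p = 0.0599). The dKO-E call was lost in females alone (4 ctrl and 2 dKO-E embryos, edgeR adjusted p = 0.0121) and in batch 2 alone (edgeR adjusted p = 0.0102). Both calls were kept with any single embryo left out. The dKO-E embryos came from 2 litters, and only dKO-E A to C shared a litter with ctrl embryos. Litter and genotype are therefore partly confounded in dKO-E against ctrl. Mean levels of *Ino80* were 186 ± 13.7 CPM (SD, n = 7) in dKO-E, beside 166 ± 14.7 CPM (n = 5) in cKO-E.

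**Figure D1:**
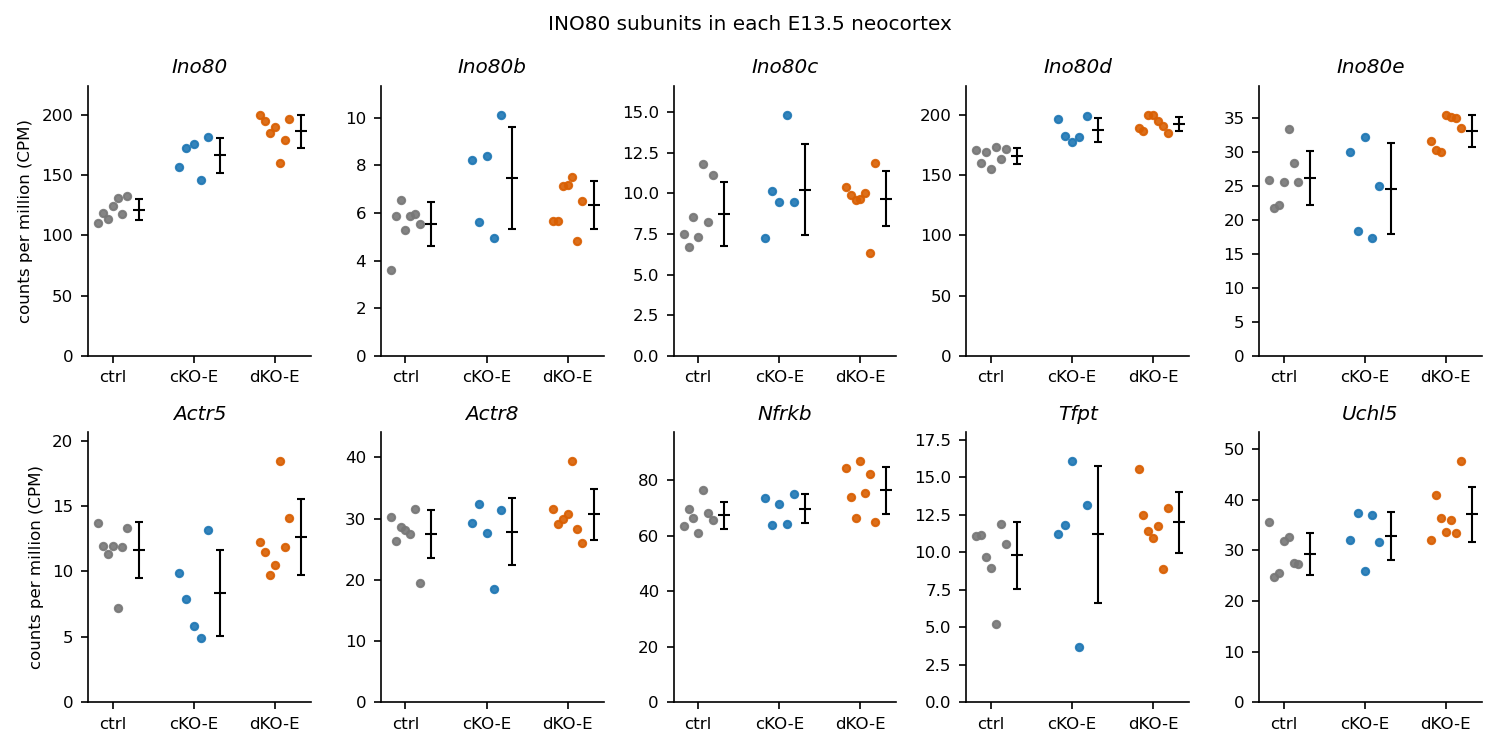
CPM (vertical axes from 0) of each INO80 subunit in ctrl (grey, 7 embryos), cKO-E (blue, 5) and dKO-E (orange, 7), with 1 point per embryo and the mean with SD as a black bar. *Ino80* and *Ino80d* are the genes for which both mutants lie wholly above ctrl; the other 8 overlap it.

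Across the 10 subunits, 8 had a log2 fold change above 0 in cKO-E and 9 in dKO-E, beside 53.4% and 51.4% of all genes tested. The median was 0.17 in cKO-E, where the median of all 11660 genes tested was 0.02, and 0.20 in dKO-E, where that of 11381 genes was 0.0081. The comparisons share their ctrl embryos, so the values are given side by side and not as repeats of each other. At the looser rate of 0.05, *Ino80* and *Ino80d* passed in cKO-E (2 of 10, against 7.31% of all genes called higher at this rate). *Ino80*, *Ino80d*, *Ino80e* and *Uchl5* passed in dKO-E (4 of 10, against 5.45%). No subunit passed in the lower direction. Every mutant embryo lay above every ctrl embryo for *Ino80* and *Ino80d* in each comparison, 2 of 10 subunits, beside 3.19% of all genes in cKO-E and 1.2% in dKO-E.

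In the core around the ATPase domain, no subunit besides *Ino80* passed either rate. *Actr5*, an actin-related protein that grips the nucleosome, had 9.89, 7.89, 5.83, 4.94 and 13.2 CPM in cKO-E A to E, against 11.6 ± 2.13 CPM (SD, n = 7; range 7.20 to 13.7) in ctrl and 12.6 ± 2.90 CPM (SD, n = 7; range 9.71 to 18.4) in dKO-E. Embryos C and D of cKO-E were below every ctrl embryo and embryo E was near the top of the ctrl range. The log2 fold change was -0.42 (SE 0.21, interval -0.85 to 0.015, edgeR adjusted p = 0.183) in cKO-E and -0.02 (interval -0.33 to 0.29) in dKO-E. Without cKO-E E the difference in cKO-E was -0.63 (adjusted p = 0.0411), without the 4 libraries with over 10% of reads outside genes it was -0.81 (adjusted p = 0.0388), without cKO-E C it was -0.29, and the library of cKO-E D held only 4 counts of *Actr5*.

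*Ino80b*, a small subunit that stimulates the ATPase, was at 5.53 ± 0.924 CPM (SD, n = 7) in ctrl, 7.47 ± 2.13 CPM (n = 5) in cKO-E and 6.35 ± 0.998 CPM (n = 7) in dKO-E. The cKO-E embryos spread from 4.94 to 10.1 CPM, and 3 of 5 lay above every ctrl embryo. The log2 fold change was 0.50 (SE 0.21, interval 0.057 to 0.94, edgeR adjusted p = 0.116) in cKO-E, of the same size as that of *Ino80* but with a standard error over 3 times as large. The ctrl and cKO-E libraries held 4 to 30 counts of it. An antisense transcript covers 51.2% of *Ino80b*, and whether the counting used strand is not stated. *Ino80c*, the partner of ACTR5, was at 8.73 ± 1.96 CPM in ctrl (SD, n = 7), and its log2 fold changes of 0.20 in cKO-E and 0.17 in dKO-E had intervals that included 0 (-0.20 to 0.60 and -0.17 to 0.51).

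*Actr8*, which anchors the actin module on linker DNA, did not pass in any comparison. Its level was 27.4 ± 3.91 CPM (SD, n = 7) in ctrl, 27.9 ± 5.53 CPM (n = 5) in cKO-E and 30.7 ± 4.23 CPM (n = 7) in dKO-E. The intervals of its log2 fold changes were -0.17 to 0.33 in cKO-E and -0.08 to 0.34 in dKO-E.

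The amino-terminal module held the other subunits that passed at 0.05. *Ino80d* (ENSMUSG00000040865.15, chromosome 1, minus strand) was at 166 ± 6.68 CPM (SD, n = 7) in ctrl, between 155 and 173 CPM. The cKO-E embryos A to E had 196, 182, 178, 182 and 199.1 CPM. The dKO-E embryos lay between 185 and 199.8 CPM, with a median of 191 CPM. The ranges of ctrl and of each mutant did not overlap, and the mutants overlapped each other. The log2 fold change was 0.18 (SE 0.053, edgeR adjusted p = 0.0267) in cKO-E and 0.21 (SE 0.047, edgeR adjusted p = 0.00526) in dKO-E. The cKO-E value missed 0.05 without cKO-E A or without cKO-E E, the highest values, with adjusted p up to 0.0832. Over 17 alternative fits it passed 0.05 in 10, and missed it with litter or the replicate letter as a block, in batch 1, batch 2 (adjusted p = 0.316) or females alone, with a filter of at least 1 count, and without cKO-E A and E and ctrl H and I (0.12, edgeR adjusted p = 0.298).

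*Ino80e* passed 0.05 in dKO-E and not in cKO-E, and the difference between the mutants did not pass. Its level was 26.1 ± 3.95 CPM (SD, n = 7) in ctrl, and the cKO-E embryos A to E had 30.0, 18.3, 32.1, 17.3 and 25.0 CPM, on both sides of the ctrl mean. All 7 dKO-E embryos, between 30.0 and 35.4 CPM, were above the ctrl mean and 4 of them above every ctrl embryo. The log2 fold change was -0.0084 (SE 0.15, edgeR adjusted p = 0.989) in cKO-E and 0.35 (SE 0.096, edgeR adjusted p = 0.0196) in dKO-E. *Uchl5*, a deubiquitinase that INO80 shares with the proteasome, was at 29.3 ± 4.11 CPM (SD, n = 7) in ctrl, 32.8 ± 4.73 CPM (n = 5) in cKO-E and 37.1 ± 5.44 CPM (n = 7) in dKO-E. It differed from ctrl by 0.15 on the log2 scale (interval -0.10 to 0.41) in cKO-E and 0.32 (SE 0.10, edgeR adjusted p = 0.0452) in dKO-E, and the latter stayed past 0.05 in 4 of 14 fits that left out 1 embryo. Over 18 alternative fits of dKO-E against ctrl, *Ino80d* and *Ino80e* passed 0.05 in 14 each and *Uchl5* in 8. With litter as a block, which ctrl A and B share with dKO-E A to C, none of these passed (adjusted p = 0.157 for *Ino80d*, 0.151 for *Ino80e* and 0.329 for *Uchl5*).

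*Nfrkb*, the scaffold that holds UCHL5 inactive, was at 67.3 ± 4.99 CPM (SD, n = 7) in ctrl, 69.6 ± 5.18 CPM (n = 5) in cKO-E and 76.2 ± 8.55 CPM (n = 7) in dKO-E. Against ctrl, dKO-E differed by 0.18 on the log2 scale (SE 0.073, edgeR adjusted p = 0.0966), and 3 dKO-E embryos lay above every ctrl embryo. *Tfpt*, known as a fusion partner in leukaemia, ranged from 5.24 to 11.9 CPM in ctrl, from 3.71 to 16.0 CPM in cKO-E and from 8.91 to 15.5 CPM in dKO-E. Its log2 fold changes were 0.27 (interval -0.16 to 0.71) in cKO-E and 0.23 (interval -0.09 to 0.55) in dKO-E.

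**Figure D2:**
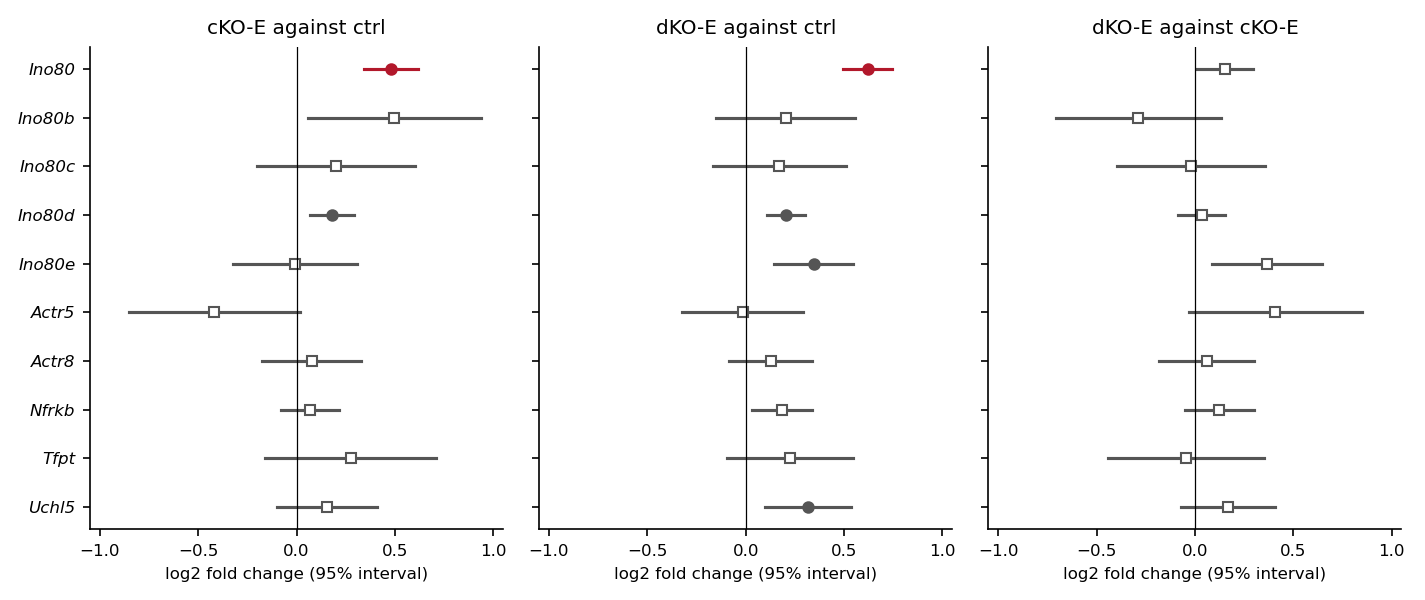
Log2 fold change (horizontal axes) with its 95% interval for each subunit in the 3 comparisons. Red marks a difference past the study's rate, filled circles pass 0.05 and open squares do not; *Ino80* is red against ctrl in both mutants (0.48 and 0.62), and no subunit is filled for dKO-E against cKO-E.

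Between dKO-E and cKO-E, which differ by the *Trp53* deletion, no subunit passed a false discovery rate of 0.05 in edgeR's quasi-likelihood test, while 15% of 11746 genes did. The likelihood-ratio test and DESeq2 also called 0 of 10. At an unadjusted p under 0.05 the count was 2 of 10, *Ino80* and *Ino80e*, beside 27.5% of all genes. *Ino80* was higher in dKO-E by 0.15 on the log2 scale (SE 0.068, interval 0.0084 to 0.29, adjusted p = 0.154) and *Ino80e* by 0.36 (SE 0.13, interval 0.085 to 0.64, adjusted p = 0.0749). *Ino80d* differed by 0.03 (interval -0.083 to 0.15). The interval for *Actr5*, -0.032 to 0.85 around a value of 0.41, and that for *Ino80b*, -0.71 to 0.13 around -0.29, were too wide to tell a difference from none. *Trp53* itself was at 43.7 CPM in ctrl, 39.2 CPM in cKO-E and 34.6 CPM in dKO-E (means), with a log2 fold change of -0.36 (SE 0.10, edgeR adjusted p = 0.0196) in dKO-E against ctrl. Between dKO-E and cKO-E the *Trp53* difference was -0.18 (interval -0.42 to 0.050, adjusted p = 0.322), and the ranges overlapped. The dKO-E embryos came from 2 litters and shared none with cKO-E, so litter and genotype cannot be told apart in this comparison. Sex was uneven as well, with 5 males among 7 dKO-E embryos and 1 among 5 cKO-E embryos. With sex as a covariate, no subunit passed 0.05.

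Within the batches that the labels number, without saying of what step, the *Ino80* difference had the same direction. In batch 1 it was 0.52 (4 ctrl and 3 cKO-E embryos, edgeR adjusted p = 0.000246) and in batch 2 it was 0.41 (3 and 2 embryos, adjusted p = 0.0599). For dKO-E the values were 0.71 (4 and 4 embryos, adjusted p = 3.55e-05) and 0.55 (3 and 2 embryos, adjusted p = 0.0102). *Ino80d* was higher by 0.17 and 0.19 in cKO-E and by 0.23 and 0.15 in dKO-E. *Actr5* in cKO-E differed by -0.64 in batch 1 and by -0.02 in batch 2. *Ino80e* in cKO-E changed sign, at 0.15 in batch 1 and -0.34 in batch 2, while in dKO-E it was 0.41 and 0.25. Batch 3 held 1 dKO-E embryo and gives no value.

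A divergent long noncoding transcript at the start of *Ino80d* fell in both mutants. *Ino80dos* (ENSMUSG00000084799.7) lies on the plus strand of chromosome 1, from 63113078 to 63158290, and its first 1590 bases overlap the start of *Ino80d*, which is 3.52% of its own span and 1.02% of that of *Ino80d*. Its level lay between 30.1 and 37.9 CPM in ctrl. The cKO-E embryos A to E had 13.8, 14.1, 15.7, 11.1 and 18.9 CPM, and the dKO-E embryos lay between 17.5 and 23.4 CPM. Both mutants were wholly below ctrl, in the direction opposite to *Ino80d*. The share of all genes wholly below ctrl is not given here.

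The log2 fold change of *Ino80dos* was -1.17 (SE 0.11, edgeR adjusted p = 3.82e-06) in cKO-E and -0.79 (SE 0.091, edgeR adjusted p = 8.39e-06) in dKO-E. Between the mutants it differed by 0.39, with the higher level in dKO-E (SE 0.13, edgeR adjusted p = 0.0517). Both calls against ctrl were kept with any embryo left out. Of the alternative fits, 15 of 16 kept the call in cKO-E and 12 of 18 in dKO-E, and all were past 0.05. It was 1 of 11 genes tested within 5 kb of a subunit gene in cKO-E, and 1 of 10 in dKO-E, called at 0.001, where 2.32% and 2.34% of all genes were called lower. The gene was examined because it overlaps a subunit gene. It is described at length because it was called, so it was picked by its change. Reads in the overlap of both genes are counted for neither unless strand was used.

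**Figure D3:**
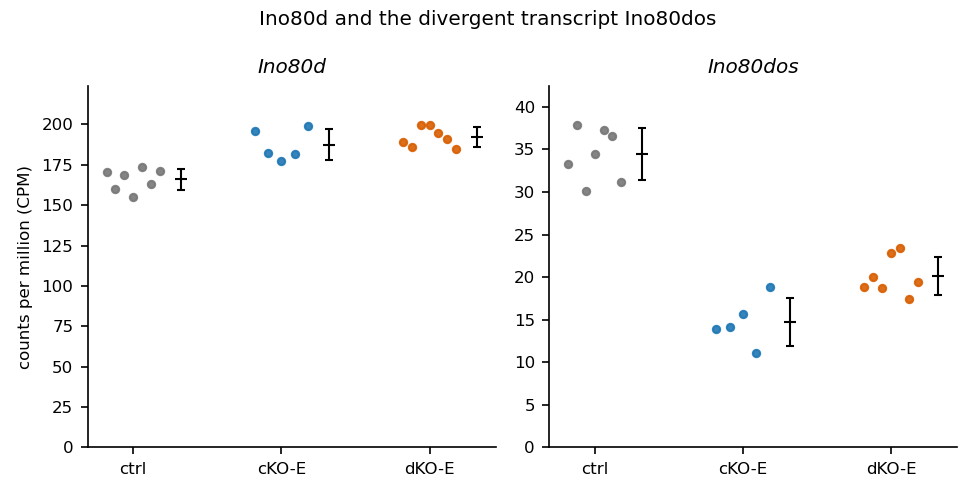
CPM (vertical axes from 0) of *Ino80d* and of *Ino80dos*, the transcript that starts beside it on the other strand, in ctrl, cKO-E and dKO-E, with 1 point per embryo and the mean with SD in black. Both mutants lie above ctrl for *Ino80d* (from 178 CPM, against at most 173 CPM) and below it for *Ino80dos* (at most 23.4 CPM, against at least 30.1 CPM).

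Subunits that INO80 shares with other complexes were not called at 0.001. Of 6 (*Ruvbl1*, *Ruvbl2*, *Actl6a*, *Actb*, *Mcrs1* and *Yy1*), *Actb*, cytoplasmic and nuclear actin, passed 0.05 in cKO-E with a log2 fold change of 0.20 (SE 0.061, edgeR adjusted p = 0.0293), and none passed in dKO-E, beside 7.31% and 5.45% of all genes higher at this rate. The log2 fold changes of the 6 ran from -0.14 for *Yy1* to 0.20 in cKO-E (median 0.03) and from 0.04 for *Yy1* to 0.25 for *Ruvbl1* in dKO-E (median 0.11). *Yy1*, a DNA-binding partner of INO80, was the 1 of 6 that differed between the mutants, where 15% of all genes did. It was at 118 CPM in cKO-E and 136 CPM in dKO-E (means; log2 fold change 0.19, SE 0.060, edgeR adjusted p = 0.0381). All 7 dKO-E embryos lay above all cKO-E embryos for *Yy1*, and the share of all genes for which this held is not given here. The H2A.Z genes *H2afz* and *H2afv*, whose product INO80 removes from or places in nucleosomes, did not pass in any comparison, with *H2afv* at 0.24 (SE 0.082, edgeR adjusted p = 0.0538) in dKO-E against cKO-E.

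Of 5 genes of the complexes that deposit H2A.Z (*Srcap*, *Ep400*, *Vps72*, *Znhit1* and *Actr6*), none was called at 0.001. *Ep400*, an ATPase of the same family as *Ino80*, passed 0.05 in dKO-E (log2 fold change 0.18, SE 0.049, edgeR adjusted p = 0.0160). It was 1 of 5, beside 5.45% of all genes higher at this rate. All 7 dKO-E embryos lay above every ctrl embryo for *Ep400*, which held for 1.2% of all genes. *Srcap*, the other ATPase, was at 31.4 CPM in ctrl and 25.4 CPM in cKO-E (means), with a log2 fold change of -0.30 (SE 0.10, edgeR adjusted p = 0.0516). *Znhit1* gave the lowest values of the list, -0.50 in cKO-E and -0.48 in dKO-E, at means of 7.16 CPM in ctrl, 5.19 CPM in cKO-E and 5.29 CPM in dKO-E, and passed in neither. *Adrm1*, the proteasome subunit that binds UCHL5, was at 0.32 (SE 0.12, edgeR adjusted p = 0.0758) in dKO-E, near the 0.32 of *Uchl5*.

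To compare levels between subunits, CPM were divided by the kilobases of exon of each gene. In ctrl, *Ino80* was at 17.8 ± 1.27 CPM per kilobase of exon (SD, n = 7), *Uchl5* at 10.03 ± 1.41, *Ino80d* at 9.37 ± 0.377, *Tfpt* at 8.15 ± 1.86 and *Nfrkb* at 5.96 ± 0.443. A lower group followed, from *Ino80b* at 3.47 ± 0.580 through *Ino80e*, *Ino80c* and *Actr8* to *Actr5* at 2.78 ± 0.508. *Ino80* exceeded *Uchl5* in 7 of 7 embryos, as *Nfrkb* did *Ino80b*, each with p = 0.0156 in a two-sided exact sign-flip permutation test, which is the smallest that 7 embryos allow. After adjustment over the 9 neighbouring pairs this was 0.0703, and no other pair of neighbours came lower, so none passed 0.05. With only these pairs at the smallest p, the adjusted value could not fall under 0.05, so the test cannot decide for them. Their ranges did not overlap, at 16.1 to 19.5 for *Ino80* against 8.46 to 12.2 for *Uchl5*, and 5.41 to 6.79 for *Nfrkb* against 2.27 to 4.10 for *Ino80b*.

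The order rests on the length used. The counts rose with intron length, since among genes with 3 to 6 kb of exon the median ctrl level was 19.1 CPM for spans under 20 kb, 37.9 CPM for 20 to 100 kb and 55.7 CPM for longer spans. *Ino80* spans 104.65 kb with 6.80 kb of exon, and *Ino80d* 156 kb with 17.7 kb. Per kilobase of gene span, a length chosen after the data were seen, *Ino80e* was highest at 2.28 ± 0.346 CPM (SD, n = 7), *Nfrkb* followed at 1.91 ± 0.142, *Ino80* was the fourth at 1.16 ± 0.0823 and *Ino80c* was lowest at 0.508 ± 0.114. A comparison of the same gene between groups does not use these lengths.

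**Figure D4:**
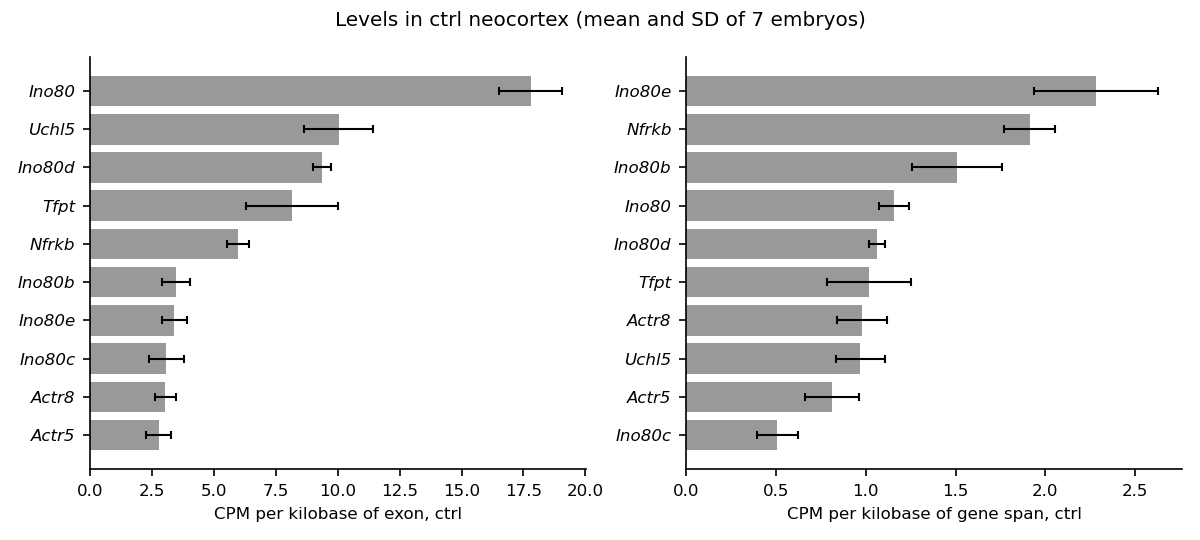
Mean level in ctrl with SD over 7 embryos (bars from 0), in CPM per kilobase of exon on the left and per kilobase of gene span on the right, each panel sorted by its own mean. *Ino80* leads on the left at 17.8 and is the fourth on the right at 1.16, where *Ino80e* leads at 2.28.

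Within 500 kb of *Ino80*, 20 genes besides *Ino80* were tested. Against ctrl, *Ivd* and the noncoding *1700020I14Rik* were called lower in cKO-E (2 of 20, against 2.32% of all genes) and *1700020I14Rik* in dKO-E (1 of 20, against 2.34%). None was called higher, where 1.06% and 0.246% of all genes were. *1700020I14Rik*, which starts 117 kb upstream of the start of *Ino80*, had a mean of 180 CPM in ctrl, 135 CPM in cKO-E and 128 CPM in dKO-E, with both mutants wholly below ctrl (log2 fold changes -0.40 and -0.50, SE 0.064 for each, edgeR adjusted p = 0.000416 and 3.14e-05). *Ivd*, an enzyme of leucine breakdown, changed by -0.64 in cKO-E (SE 0.11, edgeR adjusted p = 0.000712) and -0.62 in dKO-E (SE 0.12, edgeR adjusted p = 0.00130). *Rpap1*, which assists RNA polymerase II assembly, and *Dnajc17*, a splicing cochaperone, passed 0.05 in both mutants with changes of -0.53 to -0.71, and *Zfyve19* passed it at 0.44 in dKO-E. At 0.05, 4 of the 20 were lower and 0 higher in cKO-E, and 4 lower and 1 higher in dKO-E. Of all genes, 7.31% and 5.45% were higher at this rate. The share of all genes lower at this rate, or wholly below ctrl, is not given here. The 20 genes had a median log2 fold change of -0.04 in cKO-E and 0.03 in dKO-E. *Emx1*, the source of Cre on another chromosome, was at 109 CPM in ctrl, 84.1 CPM in cKO-E and 116 CPM in dKO-E (means).

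**Figure D5:**
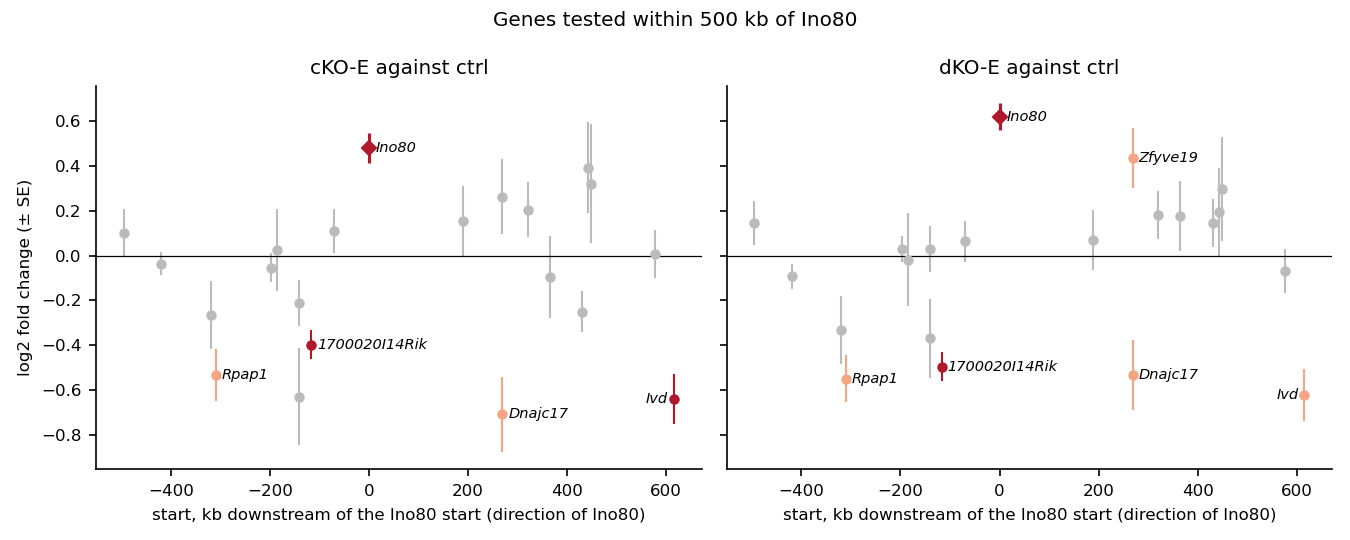
Log2 fold change with SE (vertical axes) of each of the 20 genes tested within 500 kb of *Ino80*, against the distance of its start from that of *Ino80* in kilobases, positive in the direction in which *Ino80* is transcribed; the diamond is *Ino80*. Dark red passes 0.001 and light orange 0.05; *1700020I14Rik* is dark red and below 0 in both panels, *Ivd* in the cKO-E panel, and *Ino80* is the highest point in each. *Ivd* starts 616 kb from the start of *Ino80* and ends within 500 kb of the gene.

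The genes whose profile over the 19 embryos was most like that of *Ino80* were *Ppp4r1l-ps*, *Unkl*, *Ttll3*, *Ptpdc1* and *Ogfod1*, in this order. Likeness was the root mean square difference of log2 CPM after each gene was centred on its ctrl mean, and it was 0.17 for *Ppp4r1l-ps* and 0.20 for *Ogfod1*, against a median of 0.53 over 12047 genes. *Ppp4r1l-ps*, a pseudogene transcript on chromosome 2, was at 44.3 ± 2.36 CPM (SD, n = 7) in ctrl, 54.5 ± 1.71 CPM (n = 5) in cKO-E and 64.6 ± 4.60 CPM (n = 7) in dKO-E. The genes were chosen by these same values, so their levels are given as a description.

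Promoter windows were searched for the core motif of YY1, since this factor is found with INO80. RefSeq windows of 300 bases (250 before the start and 50 after it, GRCm38.p6) were at hand for 6 of the 10 genes. The motif CCATNTT, read on both strands, was in 16.1% of 32851 windows, and its longer form GCCATNTT, which contains it, in 6.05%. Both forms were found for *Ino80b* and *Ino80e* and neither for *Ino80*, *Nfrkb*, *Tfpt* or *Uchl5*. The match at *Ino80e*, whose level passed 0.05 in dKO-E, is printed with its flanks and the longer motif in capitals, on the strand of the gene (window at chromosome 7, 126862323 to 126862622).
*Ino80e* promoter match: catctcccggcGCCATTTTgcgtcaccagg
A match of letters is a description and shows no binding, and no match says only that these letters are absent from the window.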

How the data were processed

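RNA of E13.5 neocortex was sequenced with Click-seq, in which a molecular identifier is joined to each cDNA, after depletion of ribosomal RNA. Per the labels and the study's methods, the authors trimmed reads with cutadapt 1.13, aligned them to mm10 with STAR 2.5.2a, deduplicated them with UMI-tools 0.5.3 and counted them per gene with HTSeq 0.6.1p1 in its intersection-nonempty mode. The deposited values are whole-number counts per gene and library, without normalization. The feature type and strand setting are not given in the sources used here.

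Groups follow the labels. Annotation is GENCODE M21 (GRCm38), in which 51719 of 51912 gene identifiers were found, 47734 with the same version. Another 5 summary rows were left out. Each comparison was fitted alone in R 4.3.3 with edgeR 4.0.16 (filterByExpr at a minimum count of 10, TMM factors, quasi-likelihood test, two-sided), and p values were adjusted by Benjamini-Hochberg over all genes tested. The rate was 0.001 against ctrl, as in the study, and 0.05 between the mutants. The study used edgeR's likelihood-ratio test, which was run as an alternative. SE is the log2 fold change divided by the root of the F statistic. CPM use TMM factors over 19 libraries. The fits were tested on simulated counts. A count of 3, taken as the smallest told from 0, is 0.369 to 3.71 CPM, for counting error only. No 2 libraries of the same group agreed within counting noise, and pairs across groups were not checked. Embryos are the replicates, and the main fits treat littermates as independent. The 7 dKO-E embryos came from 2 litters, and the litter of dKO-E D to G held no ctrl embryo.

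The members, lists and tests were chosen with earlier results of these data known. Genes named are the 10 subunits, the 5 genes most like *Ino80*, *Trp53* and *Emx1*. Also named are the shared subunits, H2A.Z genes, H2A.Z-depositing genes and *Adrm1*. Neighbours are named where they passed a threshold, and only some of those that overlap a subunit are named. Marker lists are given as sums and counts. Alternatives covered DESeq2 1.42.0, scalings, filters, covariates, blocks, subsets and each embryo left out. Protein sequences and reads along exons were not analysed here. Plots were made with matplotlib 3.10.9 in Python 3.11.15.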

Additional observations from a re-analysis of the deposited data

Results flagged for a closer look

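Of 33 sets of CPM examined (10 subunits and *Ino80dos* in 3 groups), 5 held a value far from the rest of its group by Dixon's criterion at 95%, which chance meets in about 1 in 20 groups. *Ino80b* was at 3.62 CPM in ctrl A, against 5.31 to 6.53 CPM in the other ctrl embryos. *Ino80c* was at 6.31 CPM in dKO-E F, against 9.58 to 11.9 CPM. *Actr5* was at 7.20 CPM in ctrl F, against 11.4 to 13.7 CPM. *Actr8* was at 19.5 CPM in ctrl I, against 26.3 to 31.5 CPM, and at 39.3 CPM in dKO-E E, the embryo of batch 3, against 25.9 to 31.6 CPM. None of these subunits was called in a comparison that used the value.

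Of the listed genes that are no cell type markers, apart from *Emx1*, which is both, 3 differed in edgeR's quasi-likelihood test of dKO-E against cKO-E, where 15% of all genes did. Of 12 dorsal cortex markers tested, 2 passed as higher and 2 as lower in dKO-E (*Emx1*, *Dcx*, *Lhx2* and *Tbr1*). The 4 ganglionic eminence markers tested (*Dlx1*, *Gad1*, *Gad2* and *Lhx6*) and the 2 microglia markers tested (*Cx3cr1* and *Mpeg1*) all passed as lower in dKO-E. *Emx1* differed by 0.45 on the log2 scale (SE 0.10, adjusted p = 0.00536), *Yy1* by 0.19 (SE 0.060, adjusted p = 0.0381) and *Knl1*, a kinetochore gene within 500 kb of *Ino80*, by 0.41 (SE 0.12, adjusted p = 0.0251). *Emx1*, *Yy1* and *Knl1* were each higher in dKO-E. Litter and genotype cannot be told apart for these values.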

How the results depend on the processing

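In cKO-E against ctrl, 1 subunit was called, but 0 in batch 2 alone, in females alone and without the libraries with over 10% of reads outside genes (an alternative chosen after the data were seen, as was leaving out libraries under 1000000 counts), and 2 at a false discovery rate of 0.05. In dKO-E against ctrl, 1 was called, but 2 with DESeq2 and with total counts (with *Ino80d*), 0 in batch 2 alone and in females alone, and 4 at 0.05. In dKO-E against cKO-E, 0 were called, but 2 with total counts, 1 with a filter of at least 1 count, 1 without the libraries with over 10% of reads outside genes (*Actr5*), and 0 to 1 with each embryo left out (*Ino80e*, without cKO-E A or C). Fewer embryos or another filter enter these fits by construction.

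Letters of embryos were not taken to pair the samples. Of same-lettered pairs, only ctrl A with dKO-E A and ctrl B with dKO-E B shared a litter. The deviations of same-lettered embryos correlated over 0.1 in 1 of 4, 1 of 5 and 1 of 5 pairs, too few pairs to decide the question. With the letter as a replicate block, 1, 1 and 0 subunits were called, while the calls over all genes moved from 28 higher and 266 lower to 1 and 36 in dKO-E. Over all genes the likelihood-ratio test called 306 higher and 530 lower in cKO-E, against 124 and 270, and 117 and 498 in dKO-E. With total counts in place of TMM, the share of higher calls moved from 31.5% to 44.7% in cKO-E, from 9.52% to 40.4% in dKO-E and from 37.3% to 53.0% between the mutants, and the median of all genes in dKO-E from 0.0081 to 0.10.

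Small differences changed sign, none of them called. For *Ino80e* in cKO-E (-0.0084) the value was 0.014 with upper-quartile factors, 0.025 with total counts, 0.0022 with batch and 0.0017 with sex as a covariate, 0.079 with the replicate block, 0.15 in batch 1, 0.032 without libraries under 1000000 counts, and -0.12 to 0.10 with each embryo left out. Without the libraries with many reads outside genes, *Actr8* was at -0.0076 and *Nfrkb* at -0.0081 in cKO-E, and *Actr8* at -0.00079 with the replicate block. In dKO-E, batch 2 gave -0.12 for *Ino80b* and -0.34 for *Ino80c*. *Actr5* in dKO-E (-0.02) was at 0.0076 with upper-quartile factors, 0.082 with total counts, 0.19 in batch 2, 0.037 in females, 0.0040 without the libraries with many reads outside genes, and -0.078 to 0.062 with each embryo left out. Between the mutants, *Ino80c* (-0.02) was at 0.030 with total counts, 0.027 with sex, 0.0059 with the replicate block, 0.13 in batch 1, 0.065 in females, 0.032 without shallow libraries and -0.12 to 0.056 with each embryo left out. *Tfpt* (-0.04) was at 0.0071 with total counts, 0.074 with the replicate block, 0.31 in females and -0.14 to 0.084 with each embryo left out. *Ino80d* was at -0.040 in batch 2 and -0.018 in females, and *Actr8* at -0.015 in batch 2. The cause of these changes was not tested.

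Depth limits the low subunits. *Ino80b*, *Ino80c*, *Actr5* and *Tfpt* rested on 3 to 93 counts per library, and their intervals span over 0.6 on the log2 scale.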

Other observations

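Genes within 5 kb of a subunit gene numbered 27, of which 9 were at 0 counts in every library. On the other strand, *Il17rb* covers 36.5% of *Actr8* and *Doc2a* 15.3% of *Ino80e*. Neither was tested, and whether the counting used strand is not stated. Besides *Ino80dos*, 3 passed a false discovery rate of 0.05 against ctrl, *Taok2* in cKO-E and *Prdm10* and *Hirip3* in dKO-E. With *Ino80dos*, this was 2 of 11 genes tested in cKO-E and 3 of 10 in dKO-E, all lower. The share of all genes lower at this rate, or wholly below ctrl, is not given here. *Prdm10*, a zinc-finger gene beside *Nfrkb*, was at 136 CPM in ctrl, 123 CPM in cKO-E and 113 CPM in dKO-E (means), with all 7 dKO-E embryos below every ctrl embryo (log2 fold change -0.30, SE 0.056, quasi-likelihood edgeR adjusted p = 0.00127). *Hirip3*, a histone-binding protein gene that overlaps the start of *Ino80e* over 406 bases on the other strand, was at 34.1 CPM in ctrl and 26.6 CPM in dKO-E (log2 fold change -0.35, SE 0.11, adjusted p = 0.0324), where *Ino80e* was higher. *Taok2*, a kinase gene beyond *Hirip3*, was at 121.5 CPM in ctrl and 103 CPM in cKO-E (log2 fold change -0.25, SE 0.062, adjusted p = 0.0109).

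*Ino80d*, with a low spread among embryos (SD of 6.68 CPM on a mean of 166 CPM in ctrl), passed 0.05 on a change of 0.18 on the log2 scale, while *Ino80b* did not on a change of 0.50.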
